A study of Mus musculus with 9 samples.

Results

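The miR-99/100 and miR-125 families were examined in small RNA libraries of the tibialis anterior (TA) muscle of control mice and of mice with cancer cachexia. The members were the 10 rows of the count tables that carry the names of the 2 families: mmu-miR-99a-5p, mmu-miR-99a-3p, mmu-miR-99b-5p, mmu-miR-99b-3p and mmu-miR-100-5p, and mmu-miR-125a-5p, mmu-miR-125a-3p, mmu-miR-125b-5p, mmu-miR-125b-1-3p and mmu-miR-125b-2-3p. They are 10 of 1915 mature miRNAs in the tables. Of all these miRNAs, 304 were expressed, meaning more than 32 counts in at least 1 library, and 9 of the 10 members were among them. The exception was miR-99b-3p, with 6 to 20 counts per library. miR-125a-3p passed through 1 library only, L6, with 39 counts.

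The control group had 4 mice injected with PBS in both flanks (C1 to C4). The LLC group had 5 mice (L1, L2, L3, L5 and L6) that received 750000 Lewis Lung Carcinoma cells, a mouse lung carcinoma line, under the skin of each flank. Muscles were taken 22 days later, at overt cachexia. The labels name no genetic change in either group. The sample labels give C57BL/6J mice of 10 weeks, and the series text gives C57BL/10 males of 8 weeks. Each library came from 1 mouse and held 4992339 to 6548379 counts (control) or 6216566 to 7833161 counts (LLC). A sixth LLC library, removed by the authors, was not analysed here.

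A miRNA hairpin is cut into a 5p and a 3p arm, and usually one of them, the guide, is loaded into the silencing complex while the other, the passenger, is degraded. In both families the 5p arm is the usual guide, and its bases 2 to 8, the seed, pair with target mRNAs. The miR-99/100 family is known for repressing the kinase mTOR and the IGF1 receptor, which drive protein synthesis in muscle. miR-125b is known for repressing IGF2 in differentiating myoblasts. The hairpins lie together with let-7 hairpins in 3 clusters that are conserved among vertebrates, and miR-99/100 and miR-10 are related by descent.

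The guide arms are printed below because their values are compared throughout, with miR-351-5p, which has the miR-125 seed outside the family. Sequences are from RefSeq (GRCm38.p6), which held all 10 members, and are written 5′ to 3′ with the seed in capitals.
miR-99a-5p: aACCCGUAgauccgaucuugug
miR-99b-5p: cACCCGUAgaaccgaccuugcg
miR-100-5p: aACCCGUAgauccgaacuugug
miR-125a-5p: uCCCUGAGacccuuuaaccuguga
miR-125b-5p: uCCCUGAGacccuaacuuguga
miR-351-5p: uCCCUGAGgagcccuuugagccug

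The miR-99/100 guides shared 1 seed, found in 3 of 1679 mature miRNAs of the table (0.179%), all of them members. The miR-125 seed was found in 5 of 1679 (0.298%), namely both miR-125 guides, miR-351-5p, miR-6367 and miR-6394. Counted from the 5′ end, miR-99a-5p and miR-100-5p differed by U16A alone. miR-99b-5p differed from miR-99a-5p by A1C, U11A, U16C and U21C. miR-125a-5p (24 nucleotides) and miR-125b-5p (22 nucleotides) shared their first 13 bases.

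The passenger arms are printed because they tell apart hairpins that their guides do not.
miR-99a-3p: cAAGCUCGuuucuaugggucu
miR-99b-3p: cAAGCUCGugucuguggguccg
miR-125a-3p: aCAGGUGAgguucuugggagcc
miR-125b-1-3p: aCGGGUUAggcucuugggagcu
miR-125b-2-3p: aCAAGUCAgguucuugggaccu

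miR-99a-3p and miR-99b-3p had the same bases at positions 2 to 8, whereas the 3 miR-125 passengers each had their own. The miR-125b guide is the same molecule from either of its hairpins, Mir125b-1 and Mir125b-2, so that only its 3p arms show which hairpin was cut.

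All 6 hairpins are on the plus strand of GRCm38. On chromosome 16, miR-99a-5p lies at chr16:77598940-77598961 and the miR-125b-2 copy of miR-125b-5p at chr16:77646279-77646300, both in introns of the long noncoding gene Mir99ahg. Their 5p arms start 47339 bases apart, and the let-7c-1 guide starts 732 bases after that of miR-99a. On chromosome 9, miR-100-5p lies at chr9:41531437-41531458 and the miR-125b-1 copy of miR-125b-5p at chr9:41581940-41581961, starting 50503 bases apart, both within the noncoding genes 3110039I08Rik and Gm49317. The miR-100 site also lies in an exon of Gm48742, on the opposite strand, and the miR-125b-1 site in Gm28119. The third cluster is compact. On chromosome 17, miR-99b-5p (chr17:17830194-17830215), let-7e-5p and miR-125a-5p (chr17:17830817-17830840) lie within the protein-coding gene Spaca6, with starts 172 and 623 bases after that of miR-99b-5p. miR-99b-5p is intronic there, and miR-125a-5p overlaps an annotated Spaca6 exon.

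The first question was how abundant the members are in TA muscle. Together they took 0.742% (L6) to 1.04% (L2) of all counts in a library, and the shares of the groups overlapped. Levels are given as CPM, counts scaled to a common library size, after TMM normalization, a scaling that corrects library totals for differences in composition. The order among the 304 expressed miRNAs by mean CPM was miR-125a-5p at 22, miR-99b-5p at 27, miR-100-5p at 32, miR-125b-5p at 46 and miR-99a-5p at 68. Passenger arms followed, with miR-125b-2-3p at 106, miR-125b-1-3p at 134, miR-99a-3p at 233 and miR-125a-3p at 303. In the control group, miR-99b-5p (1852 ± 408 CPM, SD, n = 4) and miR-100-5p (1674 ± 198 CPM), neighbours in this order, differed by less than their SDs. miR-125b-5p (1067 ± 81.6 CPM) was below both of them in every control mouse, and miR-99a-5p (362 ± 40.5 CPM) was below miR-125b-5p in every control mouse.

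The levels of the members in control and LLC mice were compared next. The p-values came from the quasi-likelihood test of edgeR, with Benjamini-Hochberg adjustment over the 304 expressed miRNAs, and a call needed an adjusted p of 0.05 or less and a change of 1.5-fold or more. No member was called, nor was any expressed miRNA (0.0% of 304). miR-125a-3p, which passed the filter through L6 alone, is left out of the counts that follow. At an unadjusted threshold of 0.05 the same test took 0 of the other 8 members and 50 of 304 miRNAs (16.4%). In 0 of these 8 were all LLC mice on one side of all control mice, compared with 18 of 304 miRNAs (5.92%). DESeq2 called 8 of the 304, none of them a member. In the 8 members the log2 fold change was above 0 in 3, next to 46.4% of all expressed miRNAs, and its median was −0.05, next to −0.02. With 4 against 5 mice the smallest p of an exact permutation test is 0.00794.

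Among the miR-99/100 guides, miR-99b-5p had the widest spread. It measured 1488, 1520, 2111 and 2289 CPM in C1 to C4, and 2624, 2673, 1669, 4220 and 1357 CPM in L1, L2, L3, L5 and L6. The LLC mice L5, L2 and L1 were above every control mouse, L6 was below every control mouse, and L3 was within the control range. The log2 fold change was 0.44 (SE 0.26, 95% interval −0.11 to 0.99, edgeR adjusted p = 0.344), and the exact two-sided permutation test gave p = 0.357. It was 0.17 without L5 and 0.24 with library totals alone. The coefficient of variation (CV) was 22.0% among control mice and 44.6% among LLC mice, where 16 expressed miRNAs had a higher one. Over all expressed miRNAs the median CV was 13.8% among control mice and 18.4% among LLC mice.

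miR-100-5p measured 1497, 1545, 1722 and 1933 CPM in C1 to C4, and 1685, 2455, 1563, 2830 and 1344 CPM in L1, L2, L3, L5 and L6. L5 and L2 were again above all control mice and L6 below them. Its log2 fold change was 0.24 (SE 0.19, 95% interval −0.17 to 0.64, edgeR adjusted p = 0.494), and it was 0.07 without L5 and 0.06 with library totals alone. The LLC group had a CV of 32.2%.

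miR-99a-5p, the least abundant guide, measured 312, 350, 380 and 407 CPM in C1 to C4, and 356, 419, 423, 567 and 288 CPM in L1, L2, L3, L5 and L6. On this scale L5 was again the highest mouse and L6 the lowest, and L2 and L3 were just above C4. The difference was 0.18 on the log2 scale (SE 0.16, 95% interval −0.17 to 0.53, edgeR adjusted p = 0.545), and 0.04 without L5 and 0.01 with library totals alone.

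The 3 guides with this seed summed to 3888 ± 640 CPM in control mice (n = 4) and 4894 ± 1807 CPM in LLC mice (n = 5). In the LLC mice the sum ran from 2988 CPM in L6 to 7617 CPM in L5, on both sides of the control range of 3297 to 4629 CPM. The difference of the means, 1006 CPM, was 325 CPM without L5, 1483 CPM without L6 and 422 CPM with library totals alone. A sum over the members was not tested.

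miR-125a-5p, the most abundant member, measured 2564, 2867, 3282 and 3591 CPM in C1 to C4, and 3094, 3611, 2551, 3332 and 2585 CPM in L1, L2, L3, L5 and L6. The ranges of the groups were nearly the same. The log2 fold change was −0.02 (SE 0.14, 95% interval −0.31 to 0.27, edgeR adjusted p = 0.948), an interval that lies within the 1.5-fold threshold on both sides. Its LLC CV was 15.3%, below the median of all expressed miRNAs.

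miR-125b-5p measured 1111, 1149, 963 and 1044 CPM in C1 to C4, and 829, 1174, 939, 941 and 931 CPM in L1, L2, L3, L5 and L6. In 4 of 5 LLC mice it was below every control mouse, while L2 was above all of them. The log2 fold change was −0.15 (SE 0.12, 95% interval −0.40 to 0.10, edgeR adjusted p = 0.489; exact two-sided permutation test, p = 0.175). It was −0.10 without C2 or without L1, −0.23 without L2 and −0.30 with library totals alone. L5, the highest mouse for all 3 miR-99/100 guides after TMM, was within the range of the other LLC mice for this guide. The 2 miR-125 guides summed to 4143 ± 403 CPM in control mice (n = 4) and 3997 ± 546 CPM in LLC mice (n = 5), and the difference of −145 CPM was 18.7 CPM without C4 and −576 CPM with library totals alone.

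**Figure D1:**
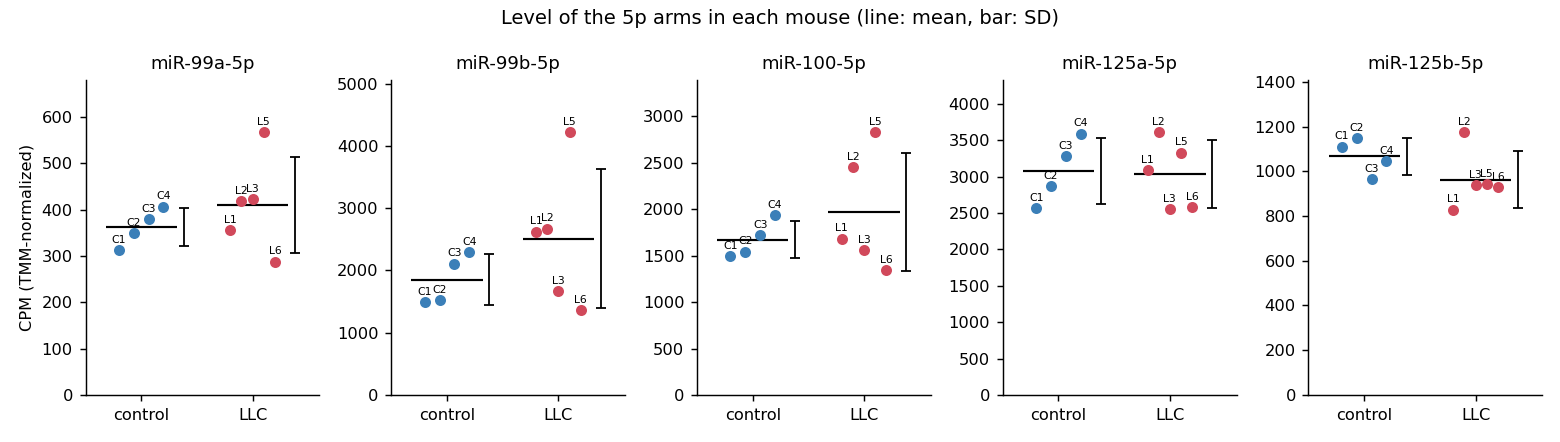
Level of the 5p arm of each member in every mouse, in CPM after TMM normalization, with the mean (line) and SD (bar) of the control (blue, n = 4) and LLC (red, n = 5) groups. For miR-99b-5p and miR-100-5p the LLC mice reach from L6, below every control mouse, to L5, above every control mouse, whereas for miR-125b-5p the LLC mice other than L2 lie between 829 and 941 CPM.

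The spread of the LLC mice changed with the normalization. TMM factors were 0.953 to 1.15 for control mice, and 0.876, 0.988, 1.07, 0.762 and 1.11 in L1, L2, L3, L5 and L6, so L5, with the highest miR-99/100 levels, had the smallest factor. Before TMM, miR-99b-5p was 2299, 2640, 1791, 3214 and 1511 CPM in these mice and 1697 to 2321 CPM in the control mice, and the LLC CV was 29.5%. L5 and L2 were still above the control range and L6 still below it, and L1 no longer exceeded C4. For miR-100-5p the highest mouse before TMM was L2 (2424 CPM, L5 2155 CPM), L1 and L6 were below every control mouse, and the LLC CV was 22.9%. For miR-99a-5p the highest was L3 (454 CPM, L5 432 CPM) and the lowest was L1 (312 CPM, L6 320 CPM), with an LLC CV of 17.1%. The order of the mice within the family therefore depended on the scaling, except that L5 and L2 exceeded the control mice and L6 lay below them for all 3 guides.

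The miR-125 guides also changed place. Before TMM, miR-125b-5p was 726, 1160, 1007, 716 and 1036 CPM in L1, L2, L3, L5 and L6 and 918 to 1325 CPM in the control mice, so that 2 of 5 LLC mice, L1 and L5, were below every control mouse and none was above. Its LLC CV was 21.3% then, against 13.2% after TMM. miR-125a-5p was 2711, 3566, 2738, 2538 and 2879 CPM in the LLC mice and 2924 to 3641 CPM in the control mice, with 4 of 5 LLC mice below every control mouse (exact two-sided permutation test, p = 0.167).

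Among the passenger arms, miR-99a-3p had the largest fold change of those expressed. It measured 12.5, 11.8, 10.1 and 9.68 CPM in C1 to C4, and 6.42, 8.63, 11.0, 6.71 and 9.86 CPM in L1, L2, L3, L5 and L6. L1, L2 and L5 were below every control mouse, and L3 and L6 were within the control range. Its log2 fold change of −0.36 (SE 0.20, 95% interval −0.79 to 0.07) did not pass the test (edgeR adjusted p = 0.328; exact two-sided permutation test, p = 0.0952). It rests on 34 to 92 counts per library.

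miR-125b-1-3p measured 59.3, 54.3, 53.8 and 57.7 CPM in C1 to C4, and 41.5, 52.8, 53.4, 43.8 and 55.3 CPM in L1, L2, L3, L5 and L6. The control mice varied little (CV 4.71%), and 4 of 5 LLC mice lay below all of them. The log2 fold change was −0.19 (SE 0.13, 95% interval −0.46 to 0.09, edgeR adjusted p = 0.417; exact two-sided permutation test, p = 0.103), and −0.32 with library totals alone. miR-125b-2-3p, the arm of the other hairpin, was the more abundant in every mouse, with 110, 112, 127 and 119 CPM in C1 to C4, and 97.8, 125, 130, 109 and 90.3 CPM in L1, L2, L3, L5 and L6. These ranges overlapped on both sides (log2 fold change −0.09, 95% interval −0.36 to 0.19, edgeR adjusted p = 0.721), and the log2 fold change lay between −0.13 (without L2) and −0.0022 (without L6) when 1 mouse was left out and was −0.22 with library totals alone.

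The remaining passengers were close to the lower limit of detection. A count of 3, taken as the smallest level that the depth can show, was 0.383 to 0.601 CPM before TMM. miR-125a-3p was at 2.43 ± 0.747 CPM in control mice (n = 4) and 2.88 ± 1.23 CPM in LLC mice (n = 5), with 9 to 39 counts per library. Since it passed the filter only through L6, an LLC mouse, its fold change is not given as a test result. miR-99b-3p was at 1.93 ± 0.746 CPM and 2.06 ± 0.202 CPM, and the groups overlapped. The other arm of the miR-100 hairpin, miR-100-3p, had 2 to 10 counts per library and was not expressed by the filter.

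**Figure D2:**
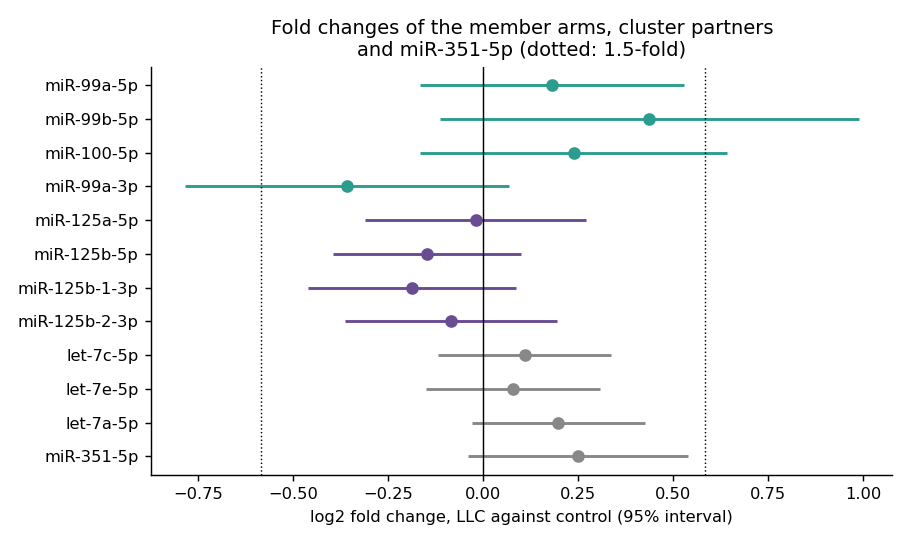
Log2 fold change of the LLC group against the control group (points) with the 95% interval (lines) from edgeR for 8 expressed members (miR-125a-3p left out), coloured by family (green miR-99/100, purple miR-125), and for let-7 cluster partners and miR-351-5p (grey), with the 1.5-fold thresholds dotted. Each interval includes 0, and the widest is that of miR-99b-5p.

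The makeup of each family was compared as shares of counts within a library, which do not depend on the normalization. miR-99b-5p took 45.1, 44.5, 50.1 and 49.4% of the miR-99/100 guide counts in C1 to C4, and 56.3, 48.2, 45.7, 55.4 and 45.4% in L1, L2, L3, L5 and L6. L1 and L5 exceeded every control mouse, and L2, L3 and L6 were within the control range. The means were 47.3 ± 2.88% and 50.2 ± 5.28% (exact two-sided permutation test, p = 0.357). The share of miR-100-5p was the mirror of this, at 43.3 ± 2.34% and 41.1 ± 4.12% (exact two-sided permutation test, p = 0.357), with L1 (36.1%) and L5 (37.2%) below every control mouse. miR-99a-5p held 9.38 ± 0.640% and 8.77 ± 1.82%, from 7.45% in L5 to 11.6% in L3 (exact two-sided permutation test, p = 0.556). L1 (7.62%), L2 (7.55%) and L5 were below every control mouse, L3 was above all of them, and L6 was within the control range. With a mouse left out, the difference in share ran from 1.36 (without L1) to 4.07 percentage points (without L6) for miR-99b-5p, from −3.25 (without L6) to −1.03 (without L1) for miR-100-5p, and from −1.32 (without L3) to −0.283 (without L5) for miR-99a-5p.

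Counting error was small next to these differences. The 95% Wilson interval of the miR-99b-5p share was 55.7 to 56.8% in L1 and 44.8 to 46.0% in L6, on family totals of 23429 to 38588 counts. Such intervals cover counting error only, since the reads carry no molecular identifiers and cannot be counted as separate molecules. Among all mice the ratio of miR-100-5p to miR-99a-5p, which differ by 1 base, ran from 3.69 in L3 to 5.86 in L2.

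Within the miR-125 family, miR-125a-5p took 69.8, 71.4, 77.3 and 77.5% of the guide counts in C1 to C4, and 78.9, 75.5, 73.1, 78.0 and 73.5% in L1, L2, L3, L5 and L6. The control mice fell into a lower pair and a higher pair, and the LLC mice lay between the pairs or just above the higher one, with none as low as the lower pair. The means were 74.0 ± 3.99% and 75.8 ± 2.59% (exact two-sided permutation test, p = 0.421). The difference of 1.81 percentage points was 0.403 without C1 and 2.97 without C4.

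**Figure D3:**
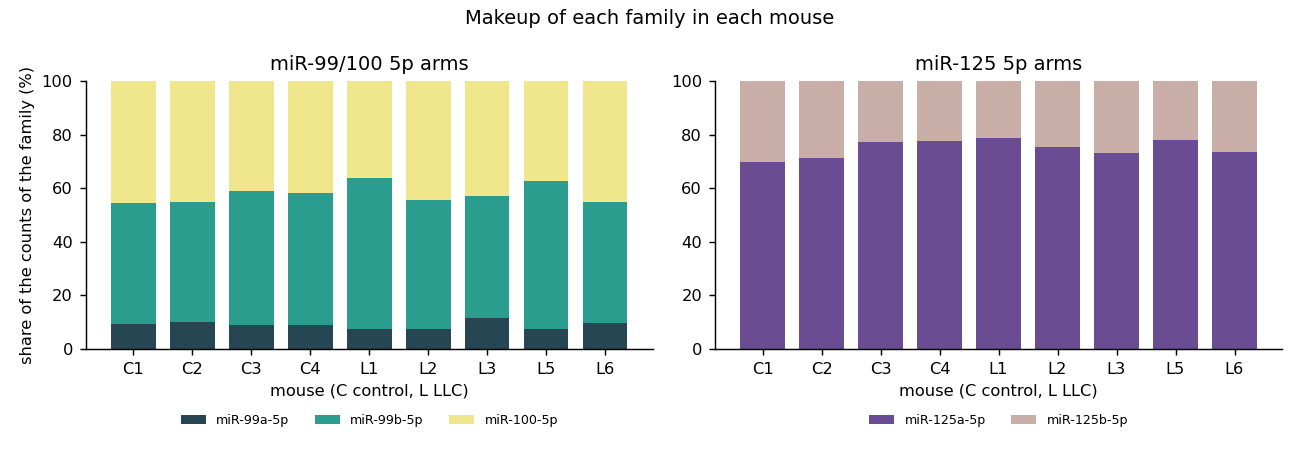
Share of each guide arm in the counts of its family in every mouse (C control, L LLC), in percent, for the miR-99/100 guides (left) and the miR-125 guides (right). miR-99b-5p holds 44.5 to 56.3% of its family and miR-125a-5p 69.8 to 78.9% of its own, with overlapping groups in both.

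The balance of the arms was then compared. For miR-99a the 3p share was 3.83, 3.26, 2.59 and 2.33% in C1 to C4, and 1.77, 2.02, 2.54, 1.17 and 3.31% in L1, L2, L3, L5 and L6. L1, L2 and L5 were below every control mouse, and L3 and L6 were inside the control range. The means were 3.00 ± 0.681% and 2.16 ± 0.810% (exact two-sided permutation test, p = 0.159). The 3p arms made up 14.1 ± 1.40% of miR-125b in control mice and 14.3 ± 1.25% in LLC mice (exact two-sided permutation test, p = 0.778), a far larger part than in the other miRNAs of both families. For miR-99b the 3p share was 0.110 ± 0.0541% and 0.0937 ± 0.0351% (exact two-sided permutation test, p = 0.627). For miR-125a it was 0.0819 ± 0.0351% and 0.0999 ± 0.0520% (exact two-sided permutation test, p = 0.571).

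Of the 3p counts of miR-125b, the Mir125b-2 hairpin gave 65.0, 67.4, 70.3 and 67.3% in C1 to C4, and 70.2, 70.3, 70.9, 71.4 and 62.0% in L1, L2, L3, L5 and L6. L6 was the lowest of the 9 mice. The means were 67.5 ± 2.16% and 69.0 ± 3.89% (exact two-sided permutation test, p = 0.532). Without L6 the difference went from 1.44 to 3.17 percentage points (exact two-sided permutation test, p = 0.0857), and without C1 it was 0.620. Differences in the stability of the 3p arms enter this share too. In all, 9 shares were tested and 0 had a p of at most 0.05 in the exact permutation test, before any adjustment.

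**Figure D4:**
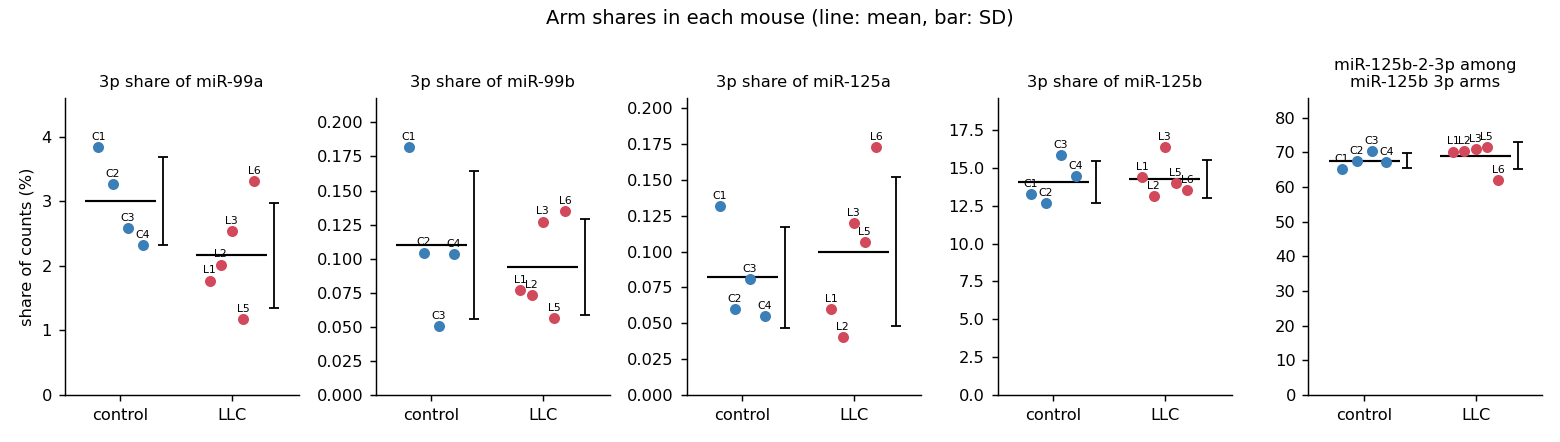
Share of the 3p arm or arms in the counts of miR-99a, miR-99b, miR-125a and miR-125b, and share of miR-125b-2-3p in the 3p arms of miR-125b, in percent for every mouse, with group means (lines) and SDs (bars; control blue, n = 4, LLC red, n = 5). The groups overlap in each panel, and L6 stands apart in the last one at 62.0%.

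Arms of one cluster were followed over the 9 mice, since they may be cut from one transcript. miR-99b-5p and miR-125a-5p of the Spaca6 cluster had a Pearson r of 0.75 in log2 CPM (exact permutation test, p = 0.0197, adjusted over 5 pairs 0.0986). Spearman's rho was 0.77 (exact permutation test, p = 0.0214, adjusted 0.0778). Without L5 and L6, the mice farthest from the median, r was 0.82, and on deviations from the group means it was 0.83. The relation was absent without TMM, with r = −0.03 for CPM of library totals alone, so it depended on the scaling. The ratio of these 2 arms does not depend on it and was not constant. It was 0.580, 0.530, 0.643 and 0.637 in C1 to C4, and 0.848, 0.740, 0.654, 1.27 and 0.525 in L1, L2, L3, L5 and L6. In 4 of 5 LLC mice it exceeded every control mouse, and L6 was just below them. This ratio was singled out after the values were seen and was not tested.

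The other cluster pairs followed each other less. miR-99b-5p and let-7e-5p had r = 0.47 (exact permutation test, p = 0.207) and rho = 0.73 (exact permutation test, p = 0.0311, adjusted over 5 pairs 0.0778). With library totals alone this r was −0.66 (exact permutation test, p = 0.0528). let-7e-5p measured 153, 173, 167 and 196 CPM in C1 to C4, and 182, 183, 182, 184 and 179 CPM in L1, L2, L3, L5 and L6. On this scale its LLC CV of 1.03% was the lowest of all expressed miRNAs, next to 44.6% for miR-99b-5p, whose hairpin is its closest neighbour. Before TMM it was at 159, 181, 195, 140 and 199 CPM in the LLC mice, with a CV of 14.3% next to 29.5% for miR-99b-5p. miR-99a-5p had r = 0.49 with let-7c-5p (exact permutation test, p = 0.182), which was −0.05 with library totals alone, and −0.07 with miR-125b-5p (exact permutation test, p = 0.869). miR-100-5p and miR-125b-5p had r = 0.13 (exact permutation test, p = 0.737). let-7c-5p and miR-125b-5p each also come from a hairpin outside the cluster in question, and their reads cannot be told apart by origin.

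Guides of different clusters were also compared over the 9 mice. These pairs were compared after the values had been seen. Of the 10 pairs of the 5 guides, 3 are the pairs within a cluster given above. Among the other 7, 4 had a p of at most 0.05 in the exact permutation test, also when adjusted over all 10. With library totals alone the count was 2, and 0 when adjusted. miR-99b-5p with miR-125a-5p, a pair within a cluster, had an adjusted p of 0.0394 over these 10 pairs and of 0.0986 over the 5 pairs within clusters (exact permutation test). miR-99b-5p and miR-100-5p, on different chromosomes, had r = 0.92 (exact permutation test, p = 0.000171, adjusted 0.00171) and rho = 0.95. The value was 0.78 without L5 and L6 and 0.70 with library totals alone. miR-99a-5p had r = 0.87 with miR-100-5p (exact permutation test, p = 0.00122, adjusted 0.00612) and 0.84 with miR-99b-5p (exact permutation test, p = 0.00523, adjusted 0.0174). Both of these were lower without L5 and L6, the mice farthest from the median. There r was 0.61 (exact permutation test, p = 0.136) and 0.48 (exact permutation test, p = 0.261), over fewer mice. With library totals alone miR-99a-5p had r = 0.69 with miR-100-5p and 0.38 with miR-99b-5p. miR-100-5p and miR-125a-5p had r = 0.78 (exact permutation test, p = 0.0113, adjusted 0.0282), which fell to 0.41 with library totals alone. The 2 miR-125 guides had r = 0.15 (exact permutation test, p = 0.695).

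For each guide, the 3 expressed miRNAs outside the families with the highest Pearson r over the 9 mice were listed. All these values come from the same libraries and one normalization, and they are descriptions. miR-99b-5p was most like miR-10a-5p (r = 0.99), miR-342-3p (0.96) and miR-204-5p (0.96). The likeness to miR-10a-5p remained without L5 and L6 (0.97) and with library totals alone (0.97). miR-10a-5p measured 37509, 43963, 62089 and 62061 CPM in C1 to C4, and 82634, 76652, 50388, 129205 and 41475 CPM in L1, L2, L3, L5 and L6, so it too was highest in L5. miR-10b-5p, looked up after these values were seen, was at rank 5 of 295 for miR-99b-5p (r = 0.95) and reached 425643 CPM in L5, next to 88884 to 201845 CPM in the control mice. Its rank was 14 for miR-99a-5p (r = 0.75), 17 for miR-100-5p (r = 0.78) and 20 for miR-125a-5p (r = 0.67). For miR-125b-5p it was 251 of 295 (r = −0.47). miR-10a-5p and miR-10b-5p are nearly identical in sequence and could share reads in the mapping, so their likenesses may not be separate.

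The miR-10 guides are shown beside miR-99/100 guides, since they are related and their levels were close in pattern to that of miR-99b-5p. Capitals mark the longest stretch shared by each pair.
miR-10a-5p: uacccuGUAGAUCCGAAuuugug
miR-100-5p: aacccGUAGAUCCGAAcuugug
miR-10b-5p: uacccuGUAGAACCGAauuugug
miR-99b-5p: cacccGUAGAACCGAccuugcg

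The shared stretch was 11 bases for miR-10a-5p and miR-100-5p, and 10 bases for miR-10b-5p and miR-99b-5p. It was 5 bases for miR-10a-5p and miR-99b-5p, the pair closest in pattern, and for miR-10b-5p and miR-100-5p. With miR-99a-5p, miR-10a-5p shared 10 bases and miR-10b-5p 5. The shared stretch begins 1 base later in miR-10, so only 4 of the first 8 bases were identical at the same position.

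miR-100-5p was most like miR-664-3p (r = 0.98), miR-700-5p (0.93) and miR-3102-3p (0.93). miR-99a-5p was most like miR-148b-3p (0.90), miR-700-5p (0.83) and miR-10a-5p (0.83). The likenesses of miR-99a-5p were the less stable, since with library totals alone they were 0.55 for miR-148b-3p, 0.53 for miR-700-5p and 0.31 for miR-10a-5p, and without L5 and L6 that to miR-10a-5p was 0.52. The miR-125 guides had other neighbours. They were miR-339-3p (0.89), miR-23a-3p (0.88) and miR-501-3p (0.82) for miR-125a-5p, and miR-30b-5p (0.94), miR-369-3p (0.90) and miR-1981-3p (0.86) for miR-125b-5p. None of these neighbours was called between the groups (lowest edgeR adjusted p = 0.296).

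**Figure D5:**
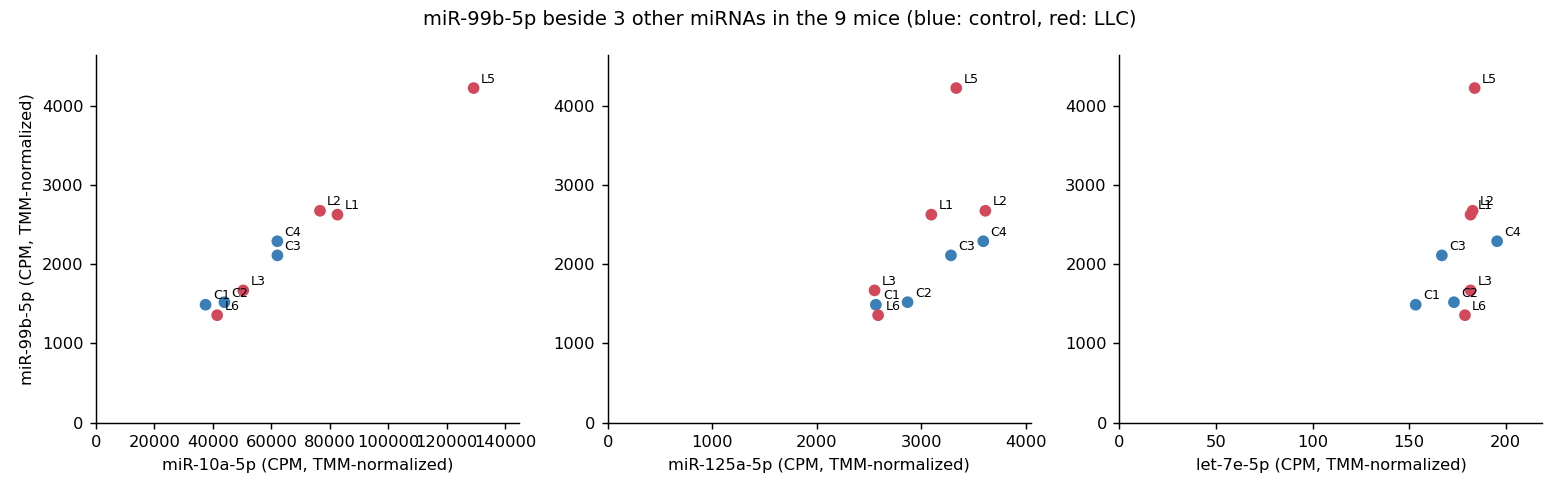
Level of miR-99b-5p (vertical axes) against miR-10a-5p, miR-125a-5p and let-7e-5p in the 9 mice, in CPM after TMM normalization (control blue, LLC red). The points follow miR-10a-5p closely (r = 0.99), follow miR-125a-5p less (r = 0.75), and stand nearly upright over let-7e-5p in the LLC mice, which lie between 179 and 184 CPM.

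The let-7 partners and miR-351-5p were tested in the same fit. let-7a-5p, a guide with hairpins in several clusters including that of miR-100, was above all control mice in all 5 LLC mice, at 3611 ± 259 CPM (n = 4) and 4140 ± 282 CPM (n = 5). Its log2 fold change was 0.20 (SE 0.11), and it was not called (edgeR adjusted p = 0.326), although the exact two-sided permutation test gave p = 0.00794, the smallest possible here. This separation depended on the scaling. Before TMM it was at 3749, 4185, 3433 and 3976 CPM in C1 to C4, and 3601, 3878, 4229, 3519 and 4567 CPM in L1, L2, L3, L5 and L6, where the groups overlapped (exact two-sided permutation test, p = 0.683). let-7c-5p was at 2302 ± 148 and 2483 ± 229 CPM (log2 fold change 0.11, edgeR adjusted p = 0.575), and let-7e-5p had a log2 fold change of 0.08 (edgeR adjusted p = 0.680). The passengers let-7c-1-3p (8 to 28 counts), let-7e-3p (11 to 21) and let-7a-2-3p (0 to 3) were not expressed. miR-351-5p, an X-linked miRNA with the miR-125 seed, was at 449 ± 90.3 CPM (n = 4) and 533 ± 53.2 CPM (n = 5), with a log2 fold change of 0.25 (SE 0.14, edgeR adjusted p = 0.326) that was 0.15 without C1, 0.38 without C4 and 0.11 with library totals alone. In every mouse it was less abundant than miR-125b-5p.

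Other miRNAs described as acting on IGF or mTOR signalling were set beside the families. Of 13 listed, 12 were expressed, and edgeR called none of them. At an unadjusted threshold of 0.05, 1 was higher and 0 were lower, next to 16.4% of all expressed miRNAs in either direction. That one was miR-29b-3p, at 46.2 ± 1.82 CPM (n = 4) and 77.0 ± 20.1 CPM (n = 5), with a log2 fold change of 0.73 (SE 0.18, edgeR adjusted p = 0.0812). DESeq2 called it (log2 fold change 0.79, DESeq2 adjusted p = 0.00825). The median log2 fold change of the 12 was 0.06, next to −0.02 for all expressed miRNAs. miR-206-3p was the one not expressed, with 0 to 3 counts. The most abundant was miR-486a-5p, with a log2 fold change of 0.20 (edgeR adjusted p = 0.570).

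The tissue label was checked against marker miRNAs. Of 6 skeletal muscle miRNAs, 5 were expressed, with summed levels of 24971 ± 4094 CPM (n = 4) and 22930 ± 1629 CPM (n = 5), of which miR-133a-3p made up most (19430 CPM over all mice). However, miR-1a-3p, a defining miRNA of muscle, had only 62 to 171 counts per library, and miR-206-3p was near 0. In whole muscle, fewer cells of a type and less of a miRNA per cell cannot be told apart. Erythroid miRNAs summed to 325, 267, 228 and 215 CPM in C1 to C4, and to 92.4, 189, 220, 110 and 150 CPM in L1, L2, L3, L5 and L6. All 3 of them (miR-451a, miR-144-3p and miR-144-5p) were below the unadjusted threshold of 0.05 and lower in the LLC group. Both miR-144 arms come from the same hairpin, so the 3 are not separate observations. Over all expressed miRNAs, 16.4% passed this threshold in either direction. The most abundant of the 3 was miR-451a (log2 fold change −0.76, edgeR adjusted p = 0.100). DESeq2 called miR-451a (DESeq2 adjusted p = 0.0261) and miR-144-5p (DESeq2 adjusted p = 0.0484). L1 and L5, lowest for these, were also the mice with the highest share of miR-99b-5p and the lowest TMM factors.

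Of 5 leukocyte miRNAs, miR-223-3p was higher (log2 fold change 0.70, edgeR adjusted p = 0.0936) and miR-150-5p, the most abundant, lower (−0.38, edgeR adjusted p = 0.100) at the unadjusted threshold, with list sums of 764 ± 49.7 CPM (n = 4) and 671 ± 62.2 CPM (n = 5). DESeq2 called miR-223-3p (DESeq2 adjusted p = 0.00825). Endothelial miRNAs summed to 29586 ± 3392 CPM and 27458 ± 2220 CPM, mostly miR-126a-5p, and 1 of 2 was lower at that threshold. Smooth muscle miRNAs summed to 54997 ± 6957 CPM and 69091 ± 16207 CPM, mostly miR-143-3p, and 0 of 2 passed it. Fibroblast miRNAs summed to 2132 ± 213 CPM and 2197 ± 628 CPM, mostly miR-199a-3p, with 1 of 3 lower. These counts stand next to 16.4% of all expressed miRNAs at that threshold, in either direction. After TMM the fibroblast sum was highest in L5 (3300 CPM) and lowest in L6 (1759 CPM). This order depended on the scaling, since before TMM L5 was below C2 and L1 was the lowest mouse. The log2 fold change was 0.08 for miR-199a-3p, −0.33 for miR-199a-5p and −0.26 for miR-214-3p. The part of these cell types in the levels of the 2 families was not tested.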

How the data were processed

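The authors prepared small RNA libraries with a TruSeq kit, sequenced them in 1 lane and mapped the reads to mature miRNAs of miRBase version 21 with Bowtie, allowing no mismatch within an 8-base seed and keeping all best alignments. The values they deposited are raw whole counts for each mature miRNA, 1 table a library, not normalized. These options permit mismatches after base 8, so miR-99a-5p and miR-100-5p could share reads. Counts of these 2 differed by 3.69 to 5.86 times, so not every read was counted at both. miR-10a-5p and miR-10b-5p, which differ by 1 base after base 8, could share reads too. The sources used here do not state how this was handled.

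The fit was edgeR 4.0.16 in R 4.3.3, with a quasi-likelihood F test on TMM-scaled counts and no block, over the 304 miRNAs that exceeded 32 counts in 1 or more of 9 libraries. This filter and the fold threshold of 1.5 are the study's. Correlations and single tests used log2 CPM (prior count 2) and exact two-sided permutation, over all 126 assignments of 4 and 5 mice for group differences. Shares have 95% Wilson intervals. Named miRNAs were the members, their cluster partners, miR-351-5p, the 3 most similar miRNAs per guide, and the listed pathway and marker miRNAs; those named after their values were seen are marked. The members and lists were chosen with earlier results of these data known. Same-numbered mice are different animals. Alternatives were RLE factors, library totals with and without the 5 most abundant miRNAs, DESeq2 1.42.0, limma 3.58.1 with voom, other filters, a replicate block, log2 odds of shares, both arms in the family total, and leaving out each mouse.

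The fit was tested in 5 simulations of 932 miRNAs. All simulated miRNAs had the same spread between mice, the median of those fitted, and composition did not shift from mouse to mouse. Detection of more variable miRNAs, such as miR-99b-5p (LLC CV 44.6%, median of all expressed 18.4%), was therefore not simulated. The counts given here are of the miRNAs tested, pooled over the simulations. They rest on an adjusted p of 0.05 or less with no fold threshold, unlike the calls above. For LLC against control the fit took 80 of 118 miRNAs changed 1.5-fold (67.8%) and 105 of 106 changed 2-fold (99.1%). Of the miRNAs left unchanged it took 14 of 1181 (1.19%). No pair of libraries within a group agreed within sampling noise (lowest chi-square per degree of freedom 124). Gene overlaps are from GENCODE vM21. Figures were drawn with matplotlib 3.10.9, and permutations run in Python 3.11.15.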

Additional observations from a re-analysis of the deposited data

Results flagged for a closer look

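In the LLC group, the share of miR-125b-2-3p in the 3p counts of miR-125b was 62.0% in L6, away from the other 4 mice, of which the nearest was at 70.2%. This gap was 0.871 of the group's range. Of 42 groups of values examined in this way, 1 stood out, and chance gives about 1 in 20. L6 had the most counts of all libraries (7833161), and its 95% Wilson interval for the share was 59.3 to 64.7%. Without L6 the difference between the groups in this share was 3.17 percentage points in place of 1.44.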

How the results depend on the processing

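No member passed the threshold in any alternative run (lowest adjusted p 0.0591, miR-99b-5p with edgeR and no filter). The number of expressed miRNAs called, 0 of 304 with edgeR, was 8 with DESeq2, 22 of 932 with no filter, and 0 to 8 with each mouse left out in turn (1 without L1, 8 without L3); none of these was a member. It was 0 in the other alternatives. The cause was not tested. With a mouse left out, the log2 fold change of miR-99b-5p ran from 0.17 to 0.61, that of miR-100-5p from 0.07 to 0.37 and that of miR-99a-5p from 0.04 to 0.30, each lowest without L5. With a mouse left out, the summed miR-125 guides differed by −342 to 18.7 CPM, above 0 without C4 only, and the summed miR-99/100 guides by 325 to 1483 CPM. Of the 219 alternative values of log2 fold changes, 207 kept their direction. The others were miR-125a-5p, at 0.0236 with RLE factors or DESeq2, 0.0177 with no filter, 0.0811 with the replicate block and −0.0964 to 0.0799 with a mouse left out, and let-7c-5p (−0.0489) and let-7e-5p (−0.0653) with library totals alone. That scaling moved the median of all expressed miRNAs from −0.02 to −0.17. In the replicate block (3 shared numbers), miR-125a-3p was at −0.29 and miR-125b-2-3p at 0.0017. Without the block miR-125a-3p was at 0.26, and at 0.12 to 0.48 with a mouse other than L6 left out. It passed the filter through L6 alone, so these values are not test results. The block left 0 calls, and 15 miRNAs in place of 50 at an unadjusted threshold of 0.05; same-numbered mice deviated together with a mean r of −0.19, against 0.03 for other pairs, so the numbers did not pair the mice. The correlation of 2 arms changed sign with library totals alone for miR-99a-5p and let-7c-5p (−0.0509), miR-99a-5p and miR-125b-5p (0.17), miR-99b-5p and let-7e-5p (−0.66), and miR-99b-5p and miR-125a-5p (−0.0273). It did so on group deviations for miR-99a-5p and miR-125b-5p (0.0814) and without 2 mice for miR-100-5p and miR-125b-5p (−0.0257). With a mouse left out, the LLC minus control difference in 3p share was −0.000263 to 0.0346 percentage points for miR-125a, −0.0362 to 0.00763 for miR-99b and −0.287 to 0.826 for miR-125b; each changed sign, the first without L6, the second without C1, and the last without C1, C2 or L3. Counts below about 40 per library limit what can be said of miR-99b-3p and miR-125a-3p.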
